A study of Mus musculus with 4 samples.

Results

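*Grb10* lies in an imprinted stretch of mouse chromosome 11. The 5 genes described here, from that stretch and its flanks, are *Grb10*, *Ddc*, *Cobl*, *Fignl1* and *Ikzf1*. They were chosen by position and name, as the rows with these symbols among the 23420 gene symbols of each count file, and the rule used no measured value, although earlier results of these data were known. RNA-seq was performed on cervical motor neurons (MNs) that had been differentiated in culture from mouse embryonic stem cells (ESCs) of the E14 line. There were 2 WT libraries and 2 libraries from cells with a *Patz1* knockout (*Patz1* KO, -/-) made in the same line, and both genotypes received 1 μM retinoic acid and 0.5 μM smoothened agonist, the signals that give spinal motor identity. PATZ1 is a zinc finger protein that binds G-rich DNA and is studied for its part in insulation at chromatin boundaries, and the comparison asked which transcripts differed in MNs without it. The study's methods give clonal *Patz1* KO lines made with Cas9 and guide RNAs, and which line gave which library is not in the labels, so a clone and the genotype cannot be told apart. The titles name ESCs where the source and the cell type name MNs, and the libraries were taken as MNs. Each library is a replicate differentiation by the study's methods, and p-values set the difference between genotypes against the spread between these libraries.

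*Grb10* encodes an adaptor protein that binds the activated insulin and IGF1 receptors and restrains growth signalling. It is an imprinted gene, with one parental copy silenced, and it is known for using the maternal copy in most tissues and the paternal copy, from other promoters, in neurons. *Ddc*, next to it, encodes the enzyme that makes dopamine from L-DOPA and serotonin from 5-hydroxytryptophan, and a form of it is transcribed from the paternal copy in the embryonic heart. *Cobl* encodes Cordon-bleu, which starts new actin filaments and shapes neuronal branches. *Fignl1* encodes an ATPase that acts in DNA repair by homologous recombination. *Ikzf1* encodes Ikaros, a zinc finger factor best known in lymphocytes.

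In *Patz1* KO MNs *Grb10* fell while its neighbour *Ddc* rose. *Grb10* was 8.08-fold lower, *Ddc* was 4.55-fold higher, *Cobl* was 4.80-fold lower and *Fignl1* was 1.83-fold lower, each as the ratio of mean CPM (counts per 1000000 counts of a library, scaled with edgeR's TMM method) over 2 libraries per genotype. *Ikzf1* had a log2 fold change of -0.33 that did not pass the test. All 5 genes passed the filter on low counts, and 4 of them passed edgeR's quasi-likelihood test at a Benjamini-Hochberg adjusted p below 0.05, 1 higher and 3 lower. Across all 14269 genes tested 47.9% passed, 24.1% higher and 23.8% lower, so a call alone was common in this comparison. The median log2 fold change over all genes was -0.0014 and the median absolute value was 0.34.

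**Figure D1:**
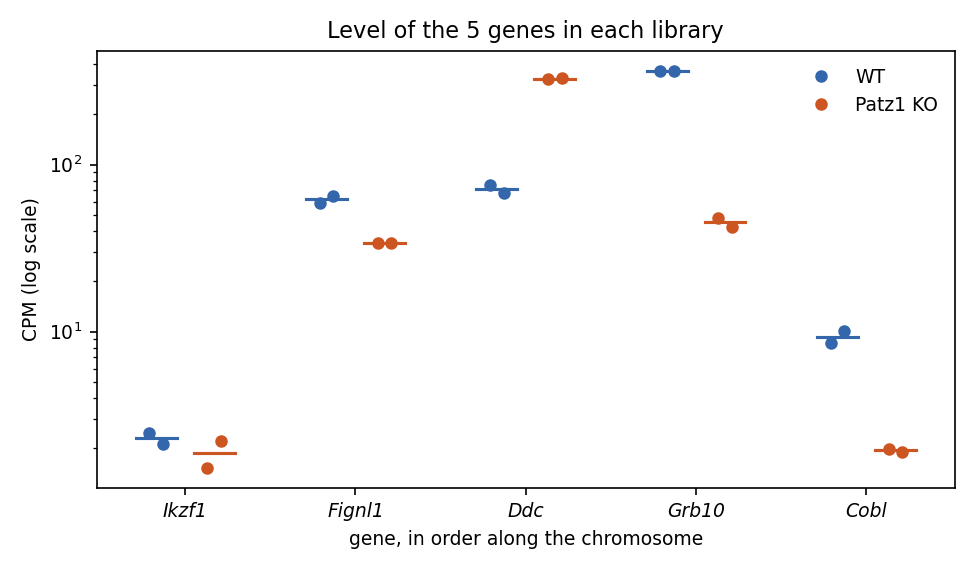
Level of the 5 genes in each library, in CPM on a log axis, with genes in their order along the chromosome; each point is 1 library and each short line is the mean of 2. *Grb10* falls from 364 to 45.0 CPM and *Ddc* climbs from 71.5 to 326 CPM between WT and *Patz1* KO, while the points of *Ikzf1* overlap.

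The targeted gene, *Patz1*, lies on the same chromosome and was counted 1363 and 1499 times in WT against 1154 and 714 times in *Patz1* KO. On the log2 scale this was a fold change of -1.04 (SE 0.095, Benjamini-Hochberg adjusted p = 1.09e-07 in edgeR's quasi-likelihood test). Gene counts do not show the edited bases themselves, and other annotated genes overlap the exons of *Patz1*. The total count was 14769104 and 15728158 in WT and 23881522 and 17402342 in *Patz1* KO. All 7 MN markers examined were counted in every library. Their summed level was 537 to 576 CPM in WT and 785 to 860 CPM in *Patz1* KO, with 6 of 7 higher. The other, *Isl1*, had a log2 fold change of -0.19 that did not pass the test. The summed level of the 4 pluripotency markers examined was 6.04 to 7.17 CPM in WT and 4.99 to 6.20 CPM in *Patz1* KO. Of the 6 endoderm markers 5 were lower, and their sum went from 57.5 to 62.3 CPM in WT down to 8.20 to 11.1 CPM. *Foxa2* alone gave 28.0 and 28.3 CPM of that sum in WT and 5.15 and 5.96 CPM in *Patz1* KO. Whether its RNA came from endoderm was not tested. All 5 mesenchyme markers were lower, and their sum went from 142 to 161 CPM down to 15.9 to 17.4 CPM. Over all genes 24.1% were higher and 23.8% lower. In bulk RNA, fewer cells of a type and less RNA per cell cannot be told apart.

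*Grb10* (ENSMUSG00000020176) lies on the minus strand of chromosome 11 from 11930508 to 12038683 in GRCm38, the assembly also called mm10. It was counted 5439 and 5764 times in WT against 1163 and 706 times in *Patz1* KO. In CPM these are 365 and 362 against 47.9 and 42.1. The WT libraries lay close together and both were far above the *Patz1* KO libraries, without overlap. The mean was 364 ± 1.86 CPM in WT and 45.0 ± 4.16 CPM in *Patz1* KO (SD, n = 2). The log2 fold change was -3.01 (SE 0.098, Benjamini-Hochberg adjusted p = 1.16e-12 in edgeR's quasi-likelihood test), with a 95% interval from -3.22 to -2.80. Ordered from the lowest log2 fold change, *Grb10* was number 165 of the 14269 genes. By mean CPM, with no correction for length, it stood at the 97.4th percentile of tested genes in WT and at the 65.1st in *Patz1* KO. All 5 mesenchyme markers and 5 of the 6 endoderm markers moved with *Grb10*, and their part in its difference was not tested.

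*Grb10* has 2 annotated start sites in RefSeq, 9.45 kb apart, and their promoters are shown because the gene is known for promoters of different tissue use while the counts hold only 1 value per gene. Each sequence runs 5′ to 3′ on the minus strand of GRCm38.p6, from 250 bases before the start site to 50 after it. Capitals mark GGGAGGG, a short G-rich string chosen for this comparison and searched on both strands. The first lies at chr11:12037371-12037670 and the second at chr11:12027922-12028221.
Grb10 upstream promoter: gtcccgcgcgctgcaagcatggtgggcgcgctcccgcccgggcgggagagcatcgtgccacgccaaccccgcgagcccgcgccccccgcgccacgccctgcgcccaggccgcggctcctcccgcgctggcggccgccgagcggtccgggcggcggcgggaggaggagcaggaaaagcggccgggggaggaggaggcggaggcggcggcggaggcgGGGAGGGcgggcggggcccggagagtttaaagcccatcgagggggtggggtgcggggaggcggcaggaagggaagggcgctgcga
Grb10 downstream promoter: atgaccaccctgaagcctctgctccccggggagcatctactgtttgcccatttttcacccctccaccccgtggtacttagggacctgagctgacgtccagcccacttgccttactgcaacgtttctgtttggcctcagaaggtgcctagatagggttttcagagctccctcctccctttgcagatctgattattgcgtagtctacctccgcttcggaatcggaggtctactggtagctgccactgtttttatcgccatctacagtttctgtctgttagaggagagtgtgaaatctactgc
The upstream promoter is 80.0% G and C, with 45 CpG dinucleotides and 1 match to GGGAGGG. The downstream promoter is 52.3% G and C, with 9 CpG dinucleotides and 0 matches. Of 32851 RefSeq promoters of this length, 7211 (22%) hold the string on either strand, and the median G and C content was 52.7%. The longer GGGGAGGGG, found in 6.37% of promoters, was in none of the promoters of the 5 genes. Counts per gene cannot say which start site, or which parental copy, the lost reads came from.

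*Ddc* (ENSMUSG00000020182), the decarboxylase gene, lies 32.4 kb away on the same strand, from 11814101 to 11898144. It was counted 1131 and 1068 times in WT against 7851 and 5498 times in *Patz1* KO. In CPM these are 75.9 and 67.1 against 324 and 328. Both *Patz1* KO libraries were above both WT libraries, and the libraries of each genotype lay close together. The mean was 71.5 ± 6.19 CPM in WT and 326 ± 2.79 CPM in *Patz1* KO (SD, n = 2). The log2 fold change was 2.19 (SE 0.094, Benjamini-Hochberg adjusted p = 1.03e-11 in edgeR's quasi-likelihood test), with a 95% interval from 1.99 to 2.39. *Ddc* was number 106 from the highest log2 fold change. It moved from the 77.3rd to the 97.1st percentile of mean CPM. Of 7 MN markers 6 rose with *Ddc*, by 0.63 (*Lhx3*) to 0.99 (*Chat*, which makes acetylcholine) on the log2 scale. *Isl1* went the other way, with a log2 fold change of -0.19 that did not pass the test. The part of these markers in the rise of *Ddc* was not tested.

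The 2 RefSeq start sites of *Ddc* are 7.74 kb apart, and their promoters are shown beside those of *Grb10* because the 2 neighbours moved in opposite directions. They lie at chr11:11898095-11898394 and chr11:11890359-11890658 of GRCm38.p6, minus strand, printed as above.
Ddc upstream promoter: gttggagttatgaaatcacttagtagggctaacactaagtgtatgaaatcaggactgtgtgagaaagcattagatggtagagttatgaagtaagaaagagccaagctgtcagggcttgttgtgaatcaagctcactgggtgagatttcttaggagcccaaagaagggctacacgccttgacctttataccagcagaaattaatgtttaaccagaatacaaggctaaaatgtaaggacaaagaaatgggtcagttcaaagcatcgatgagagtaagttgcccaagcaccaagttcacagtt
Ddc downstream promoter: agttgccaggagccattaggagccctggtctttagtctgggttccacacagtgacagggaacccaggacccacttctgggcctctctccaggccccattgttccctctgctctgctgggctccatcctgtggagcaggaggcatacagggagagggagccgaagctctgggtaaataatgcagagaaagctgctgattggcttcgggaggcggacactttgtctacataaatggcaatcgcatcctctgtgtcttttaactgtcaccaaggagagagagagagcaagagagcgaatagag
Neither holds GGGAGGG on either strand. The upstream promoter is 41.3% G and C with 2 CpG dinucleotides, and the downstream promoter is 54.3% with 5, so both are poor in CpG compared with the upstream *Grb10* promoter. The other CpG-rich promoters of the 5 genes were the upstream promoter of *Ikzf1* (81.3% G and C, 52 CpG, 1 match to GGGAGGG), that of *Cobl* (75.3%, 42 CpG, 0 matches) and the single promoter of *Fignl1* (62.0%, 34 CpG, 0 matches). A match describes letters in the window and is no evidence of binding.

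*Cobl* (ENSMUSG00000020173) lies 198 kb beyond *Grb10*, on the minus strand from 12236608 to 12464960. It was counted 128 and 160 times in WT against 48 and 32 times in *Patz1* KO, or 8.59 and 10.1 CPM against 1.98 and 1.91. The WT libraries were both above the *Patz1* KO libraries. The mean was 9.32 ± 1.04 CPM in WT and 1.94 ± 0.051 CPM in *Patz1* KO (SD, n = 2). The log2 fold change was -2.26 (SE 0.22, Benjamini-Hochberg adjusted p = 2.89e-07 in edgeR's quasi-likelihood test), with a 95% interval from -2.73 to -1.78. Its interval is wider than that of *Grb10* and rests on 32 to 160 counts per library. The same 5 mesenchyme markers and 5 of the 6 endoderm markers also moved with *Cobl*, and their part in the result was not tested.

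*Fignl1* (ENSMUSG00000035455) lies 5.14 kb from *Ddc* on its other side, on the minus strand from 11787431 to 11808962. It was counted 875 and 1037 times in WT against 821 and 569 times in *Patz1* KO, or 58.7 and 65.2 CPM against 33.8 and 33.9. The first *Patz1* KO library, the most deeply sequenced, had a raw count near that of WT, while after scaling both *Patz1* KO libraries were below both WT libraries. The mean was 61.9 ± 4.58 CPM in WT and 33.9 ± 0.041 CPM in *Patz1* KO (SD, n = 2). The log2 fold change was -0.87 (SE 0.099, Benjamini-Hochberg adjusted p = 1.28e-06 in edgeR's quasi-likelihood test), with a 95% interval from -1.08 to -0.66. Against a minimum absolute log2 fold change of 1 it was not called, which was the only change of call of a member under any setting tried.

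*Ikzf1* (ENSMUSG00000018654) lies 14.5 kb beyond *Fignl1*, from 11685003 to 11772926, and is the only one of the 5 on the plus strand. It was counted 37 and 34 times in WT against 37 and 37 times in *Patz1* KO, or 2.48 and 2.14 CPM against 1.53 and 2.20. The second *Patz1* KO library lay between the WT libraries, so the groups overlapped. The mean was 2.31 ± 0.244 CPM in WT and 1.87 ± 0.480 CPM in *Patz1* KO (SD, n = 2). The log2 fold change of -0.33 (SE 0.32) had a 95% interval from -0.998 to 0.33 and did not pass the test (Benjamini-Hochberg adjusted p = 0.402 in edgeR's quasi-likelihood test). The interval leaves room for a fall of up to 2-fold, so the depth does not show that *Ikzf1* was unaltered. Of 10 blood markers 2 were high enough to be tested. The summed level of all 10 was 7.98 to 8.05 CPM in WT and 17.0 to 17.9 CPM in *Patz1* KO. Among the others *Sfpi1*, *Lyz2* and *Cd3e* had 0 counts in all 4 libraries, which allows up to 3 counts each per library, and the leukocyte gene *Ptprc* had at most 2. *Tal1*, a blood and spinal interneuron factor, rose from 17 and 26 counts to 211 and 130. *Runx1*, a factor of blood stem cells, had 98 and 97 counts in WT against 209 and 142 and did not pass the test.

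Levels of different genes were compared per kb of annotated exon. In WT the order was *Grb10* at 40.0 CPM per kb, *Ddc* at 16.0, *Fignl1* at 12.8, *Cobl* at 1.14 and *Ikzf1* at 0.400. In *Patz1* KO it was *Ddc* at 73.0 CPM per kb, *Fignl1* at 7.0, *Grb10* at 4.95, *Ikzf1* at 0.323 and *Cobl* at 0.239. *Grb10* thus went from the top to the middle of the order, below *Fignl1*. *Ddc* and *Fignl1* were the closest neighbours in WT, at 17.0 and 15.0 against 12.1 and 13.5 CPM per kb. *Ikzf1* and *Cobl* were the closest in *Patz1* KO, at 0.264 and 0.382 against 0.243 and 0.234 CPM per kb. Neither pair overlapped in range, although *Ikzf1* and *Cobl* rested on 32 to 48 counts per library, so their order is uncertain at this depth.

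The ratio of the neighbours within each library does not depend on how libraries are scaled. *Grb10* per kb was 2.36 and 2.65 times *Ddc* in the WT libraries. *Ddc* per kb was 13.8 and 15.9 times *Grb10* in the *Patz1* KO libraries. The total of the 5 genes was lower in *Patz1* KO, at 511 and 507 CPM in WT and 409 and 408 CPM in *Patz1* KO. *Grb10* gave 71.5% of that total in both WT libraries, against 11.7% and 10.3% in *Patz1* KO. *Ddc* gave 14.9% and 13.2% in WT and 79.1% and 80.4% in *Patz1* KO. *Grb10* had the most reads of the 5 genes in both WT libraries, and *Ddc* had the most in both *Patz1* KO libraries.

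**Figure D2:**
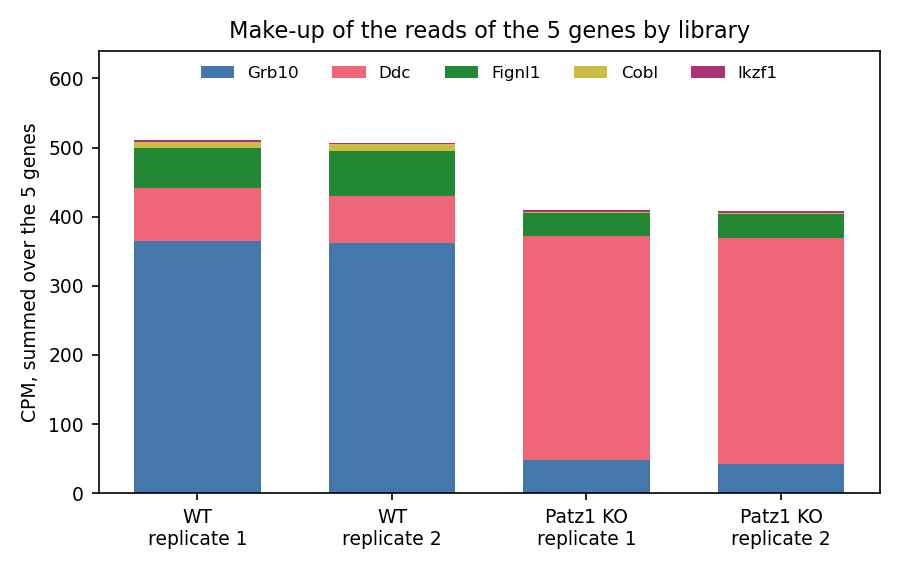
CPM summed over the 5 genes in each library, stacked by gene. *Grb10* gives 71.5% of the stack in both WT libraries, and *Ddc* gives 79.1% and 80.4% in the *Patz1* KO libraries, while the height goes from 511 and 507 to 409 and 408 CPM.

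Within 2 Mb of *Grb10*, GENCODE M21 annotates 27 genes, 9 of them with a row in the files and 8 tested. The 4 that passed the test were *Grb10*, *Ddc*, *Cobl* and *Fignl1*, while 47.9% passed over all genes tested. *1700042O10Rik*, a non-coding gene antisense to *Ddc* within its introns, had 48 and 56 counts in WT against 110 and 93 in *Patz1* KO. The log2 fold change of 0.57 missed the threshold (Benjamini-Hochberg adjusted p = 0.0545 in edgeR's quasi-likelihood test), and it was called under 4 other settings, with adjusted p from 0.0156 to 0.0471. Its exons do not overlap those of *Ddc*, but without the strand setting of the counting, reads from unspliced *Ddc* RNA cannot be told apart from its own. *4930415F15Rik* (*Spata48*) had 17 and 26 counts in WT against 17 and 14 in *Patz1* KO, which gave a log2 fold change of -0.87 that did not pass (Benjamini-Hochberg adjusted p = 0.0853 in edgeR's quasi-likelihood test). *Zpbp*, a sperm gene whose exons share 223 bases with it, had 11 and 19 against 33 and 19 counts, a log2 fold change of 0.37 that was 0.07 without WT replicate 1 and 0.77 without WT replicate 2 (Benjamini-Hochberg adjusted p = 0.468 in edgeR's quasi-likelihood test). *Vwc2*, a secreted BMP antagonist gene, had 4 and 6 against 12 and 10 counts and was too low to be tested. No exon of the 5 genes overlaps an exon of another annotated gene.

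**Figure D3:**
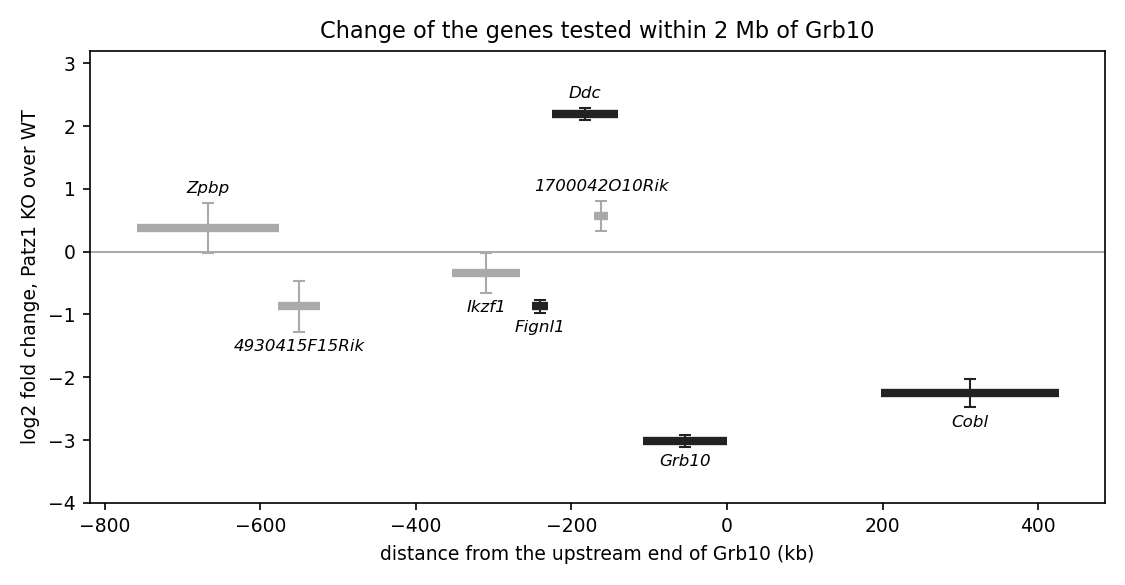
Log2 fold change (*Patz1* KO over WT) of the 8 genes tested within 2 Mb of *Grb10*, against distance in kb from the upstream end of *Grb10*; bars span each gene, error bars are 1 SE, and black marks an adjusted p below 0.05. *Ddc* at 2.19 stands between *Fignl1* at -0.87 and *Grb10* at -3.01, and *Cobl* lies at -2.26.

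*Ddc* was flanked by lower genes on both sides. Over 13421 pairs of neighbouring tested protein-coding genes, the median difference in log2 fold change was 0.50. *Ddc* and *Grb10* differed by 5.20, number 53 from the largest. *Fignl1* and *Ddc* differed by 3.06, number 348. *Grb10* and *Cobl*, both lower, differed by 0.75. In 11 pairs, that of *Ddc* and *Grb10* included, both genes were called with 1 lower and the other higher by at least 2 log2 units. The 5 genes span 0.780 Mb, and beyond *Cobl* the next tested gene, *Vstm2a*, lay 3.79 Mb away with a log2 fold change of -0.39 (Benjamini-Hochberg adjusted p = 0.236 in edgeR's quasi-likelihood test).

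*Patz1* itself ends 8.62 Mb before *Grb10*, so the stretch between the edited gene and the 5 genes was described as well. Of 74 tested genes between *Patz1* and *Ikzf1*, 19 were higher and 21 lower, 54.1% called, with a median log2 fold change of 0.05. The last of them before *Zpbp* were all called lower. These were *Igfbp3* at -1.12, *Tns3* at -1.75, *Hus1* at -0.61 and *Upp1* at -2.94, so large falls on this side were not confined to the 5 genes. Of 27 tested genes in the 10 Mb beyond *Cobl*, 2 were higher and 4 lower, 22.2% called, with a median of -0.09. Over the 1126 tested genes of chromosome 11, 44.9% were called and the median was -0.02. The values of *Grb10*, *Ddc* and *Cobl* were thus far from the median of the chromosome that carries them, as was that of *Upp1*.

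**Figure D4:**
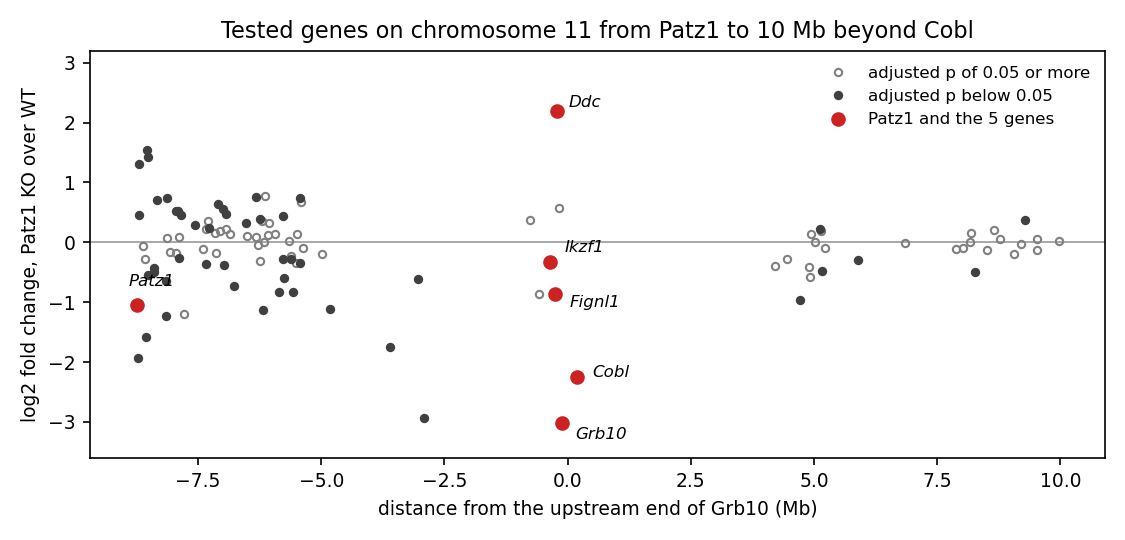
Log2 fold change (*Patz1* KO over WT) of tested genes on chromosome 11 from *Patz1* to 10 Mb beyond *Cobl*, against distance in Mb from the upstream end of *Grb10*; filled points have an adjusted p below 0.05. *Grb10* at -3.01 and *Ddc* at 2.19 are the lowest and the highest points of this stretch.

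The receptors and partners of GRB10 were examined as a list of 20 genes, all tested. Of these 4 rose and 7 fell, against 24.1% higher and 23.8% lower over all genes. The median log2 fold change was -0.07, and it was -0.17 without *Patz1* KO replicate 1. *Igf2*, a growth factor that acts through the IGF1 receptor, fell by 1.21 on the log2 scale, from 5518 and 6004 counts to 3606 and 2938. *Ret*, the signalling receptor for GDNF, rose by 0.55. It lies on chromosome 6, whose 695 tested genes had a median log2 fold change of 0.56 with 65.3% called higher, and the part of that shift in its rise was not tested. Of the 18 partners on other chromosomes 2 rose and 7 fell. The insulin receptor *Insr* rose by 0.33 and the IGF1 receptor *Igf1r* fell by 0.28 on the log2 scale. Of the related adaptors, *Grb7* fell by 2.58 on the log2 scale from 23 and 14 counts to 4 and 4, and *Grb14* had 0.50 without passing the test.

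Beside *Ddc*, 18 genes of monoamine synthesis and transport were listed. Of these 13 were tested, 4 rose and 3 fell, against 24.1% higher and 23.8% lower over all genes. The median log2 fold change was -0.06. The 7 calls became 3 with DESeq2's Wald test, 4 without WT replicate 1 and 3 without WT replicate 2. The median was above 0 without *Patz1* KO replicate 1 (0.08), without WT replicate 1 (0.02) and with at least 10 counts in every library (0.01). *Th*, which makes the L-DOPA used by the decarboxylase, had 452 and 430 counts in WT against 675 and 453 in *Patz1* KO, which gave a log2 fold change of -0.06 that did not pass. *Dbh*, which turns dopamine into noradrenaline, fell by 3.37 on the log2 scale from 48 and 55 counts to 8 and 5. *Gch1* and *Spr*, which make the cofactor of *Th*, rose by 1.38 and 0.87, and *Spr* lies on chromosome 6. *Slc18a2*, the vesicular monoamine transporter, rose by 0.29. *Tph1*, *Tph2*, *Pnmt*, *Slc6a3* and *Slc6a4*, the genes for serotonin and adrenaline synthesis and for dopamine and serotonin uptake, were at 8 counts or fewer in each library and were not tested. Of 9 transcription factors of aminergic neurons, 5 were tested, *En1* rose by 1.64, from 10 and 9 to 43 and 36 counts, and *En2* fell by 0.94 on the log2 scale, with a median of -0.29. That median was -0.70 with no filter on low counts and with DESeq2's Wald test, -0.52 with at least 10 counts in every library and -0.51 without chromosome 6. DESeq2's Wald test called 1 of the factors. *Fev* and *Pitx3*, which mark serotonin and dopamine neurons, had 0 counts in all 4 libraries, which allows up to 3 counts each.

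Of 25 actin nucleators and COBL partners 23 were tested, 9 rose and 5 fell, against 24.1% higher and 23.8% lower over all genes. The median log2 fold change was -0.07, so the counts and the median differ in direction. The median was 0.13 with no filter on low counts, 0.12 with DESeq2's Wald test and 0.11 with at least 10 counts in every library, and leaving out 1 library gave -0.024 to 0.0059. *Daam2*, a formin-type regulator, rose by 1.06 and *Spire1*, which nucleates actin with formins, rose by 0.56. *Diap3* (*Diaph3*), a formin, fell by 1.03 on the log2 scale. *Cobll1*, the relative of *Cobl*, fell by 1.69 on the log2 scale, from 53 and 57 counts to 34 and 12, and *Pacsin1*, whose product binds COBL, rose by 1.08.

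Of 24 FIGNL1 relatives and genes of homologous recombination, all tested, 12 fell and 1 rose, against 23.8% lower and 24.1% higher over all genes, and the median log2 fold change was -0.18. *Brca1* fell by 1.09 and *Brca2* by 0.89 on the log2 scale. *BC055324* (*Firrm*), the partner of FIGNL1, went from 319 and 390 counts to 311 and 209 and fell by 0.86 on the log2 scale, close to the -0.87 of *Fignl1*. The gene that rose was *Vps4a*, an ATPase of membrane scission, by 0.60. Of 5 progenitor and glia markers, *Nes* fell by 0.72 on the log2 scale, *Sox9*, *Fabp7* and *Slc1a3* rose by 0.53, 0.68 and 1.25, and *Sox2* did not pass, while their sum was 1203 to 1253 CPM in WT and 1332 to 1399 CPM in *Patz1* KO. The part of such cells was not tested. In the Ikaros family *Ikzf2* rose by 0.63, *Ikzf4* and *Ikzf5* did not pass the test, and *Ikzf3* was at 2 counts or fewer. The median of the 3 tested was 0.14, with 0.03 without WT replicate 1, 0.28 without WT replicate 2, -0.02 with no filter on low counts and -0.03 with DESeq2's Wald test. Without *Patz1* KO replicate 2, 2 genes of the family were called.

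Imprinted genes outside this stretch went both ways. Of 47 listed 42 were tested, 19 rose and 10 fell, against 24.1% higher and 23.8% lower over all genes. The median log2 fold change was 0.11. *Plagl1*, a zinc finger factor, fell by 2.20 on the log2 scale, from 3626 and 4452 counts to 1342 and 977. *Peg13*, a non-coding RNA, fell by 3.93 on the log2 scale, from 338 and 304 counts to 34 and 22. *Dlk1*, a growth regulator, rose by 1.97, from 416 and 408 counts to 2673 and 1676. Leaving out the 7 genes on chromosome 6, of which 6 rose, 13 rose and 10 fell, with a median of 0.06.

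**Figure D5:**
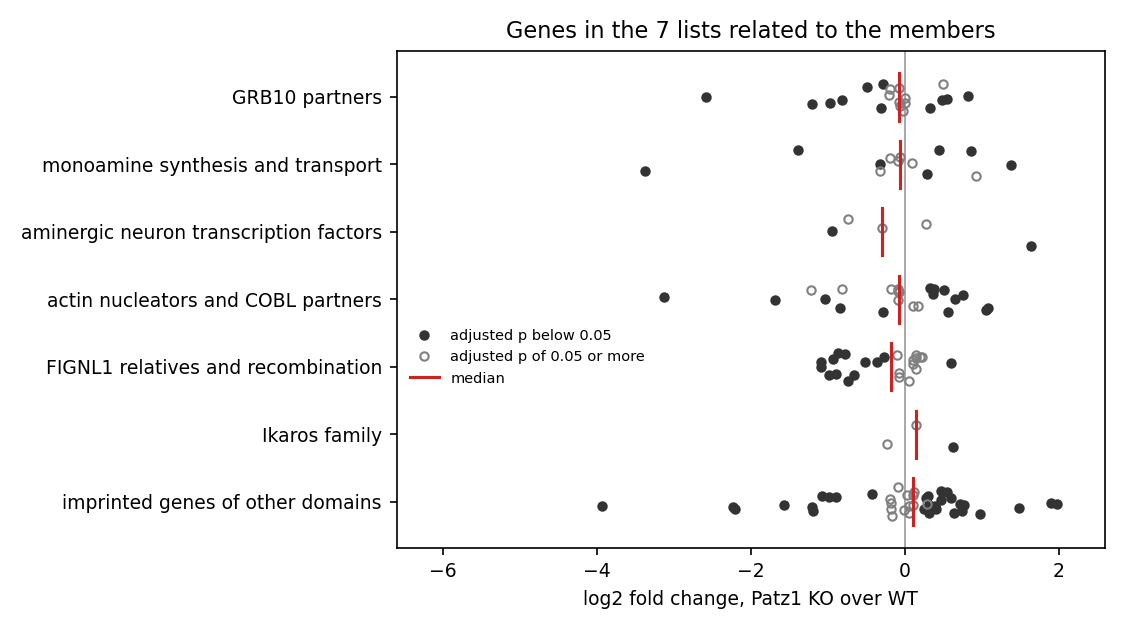
Log2 fold change (*Patz1* KO over WT) of each tested gene in the 7 lists, 1 row per list, with random vertical spread; filled points have an adjusted p below 0.05 and red lines are medians. The medians lie between -0.29 and 0.14, and the FIGNL1 row has 12 filled points on the lower side against 1 on the higher.

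The genes with the most similar pattern to *Grb10* were found by the distance between log2 CPM deviations from each gene's mean over the 4 libraries. They were *Dsc2*, a desmosomal cadherin, at a distance of 0.092, *Dbh* at 0.096 and *Shh*, the signal of the ventral neural tube, at 0.136. *Shh* went from 558 and 628 counts to 118 and 80. The nearest to *Ddc* were *Zbtb4*, a zinc finger gene on the same chromosome, at 0.055, *Flrt1* at 0.085 and *Thnsl2* at 0.141. *Thnsl2* lies on chromosome 6, whose median log2 fold change was 0.56, and the part of that shift in its rise was not tested. *Flrt1* went from 15 and 14 counts to 121 and 79. *Zbtb4* went from 149 and 144 counts to 1012 and 726. With 4 libraries in 2 groups such likeness is largely likeness in fold change, but the order of the nearest genes does not follow it. *Shh* at -2.99 came after *Dbh* at -3.37, against -3.01 for *Grb10*. The log2 CPM used a prior count of 2, which makes the changes of genes with few counts smaller.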

How the data were processed

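The authors deposited raw counts of reads per gene symbol, 1 file per library, without normalization. Libraries were stranded and depleted of ribosomal RNA. Per the labels, TopHat2 2.1.1, Bowtie2 2.3.1, featureCounts 1.6.2 and DESeq2 were used with mm10; the counting annotation and strand setting are not given in the sources used here, so overlapping and antisense genes are uncertain. Every line named a gene.

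Counts were filtered with filterByExpr (minimum count 10), scaled with TMM and fitted over all 4 libraries with edgeR 4.0.16 (limma 3.58.1, R 4.3.3), using the quasi-likelihood test with Benjamini-Hochberg adjustment at 0.05 over 14269 genes. The SE was derived as the size of the log2 fold change over the root of F, and the 95% interval used the t distribution with the fit's degrees of freedom. The biological coefficient of variation was 7.71%. The depth was 14769104 to 23881522 counts per library, and genes with few counts are the least precise. With 2 against 2 libraries an exact permutation test of 1 gene cannot pass 0.05, and none was run. Counts of 14269 genes were simulated with these libraries' means and sizes, and 14029 of them passed the filter and were tested with edgeR. It recovered 57 of 66 genes changed by 1 log2 unit and 67 of 67 changed by 2. Of 67 genes changed by 3, 63 passed the filter and all 63 were recovered. Of 13833 tested genes that had not been changed, edgeR called 13. DESeq2's Wald test on all 14269 recovered 49 of 66, 64 of 67 and 63 of 67, and called 2 of 14069 unchanged genes. The simulation changed few genes and gave both genotypes the same spread. In the data 47.9% were called, and the chi-square per gene between replicates was 9.87 in WT and 22.0 in *Patz1* KO. These rates therefore need not hold for this comparison.

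Coordinates and exon lengths came from GENCODE M21 (GRCm38), matched to 23001 of 23420 symbols, and promoters from RefSeq (GRCm38.p6). No other genome sequence and no proteins were used. The members and lists were chosen with earlier results of these data known. Named were the 5 members, *Patz1*, counted genes within 2 Mb, per list the 3 called genes of smallest p, list members at the detection limit, and the 3 nearest patterns to *Grb10* and *Ddc*. Some genes this rule takes are not reported here. Other genes were named after their values were seen. Alternatives were DESeq2's size factors and Wald test (1.42.0), library size alone, other low-count filters, a replicate block, a minimum fold, robust estimation and leaving out each library. The list counts without chromosome 6 were chosen after seeing the data.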

Additional observations from a re-analysis of the deposited data

How the results depend on the processing

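No log2 fold change of the 8 genes tested around *Grb10* changed direction under any of 12 alternatives, and *Grb10*, *Ddc* and *Cobl* were called in every one. Leaving out 1 library, where the lone library was assumed to vary like the others, gave -3.11 to -2.92 for *Grb10*, 2.11 to 2.28 for *Ddc*, -2.37 to -2.13 for *Cobl*, -0.94 to -0.79 for *Fignl1*, -0.59 to -0.06 for *Ikzf1*, 0.07 to 0.77 for *Zpbp*, -1.10 to -0.57 for *4930415F15Rik* and 0.43 to 0.71 for *1700042O10Rik*. Genes called over all genes went from 4571 to 7812 in those fits. With a minimum absolute log2 fold change of 1 in place of 0, 718 genes were called in place of 6837, *Fignl1* at -0.87 was not called, and the list counts became 1 for GRB10 partners, 1 for monoamine genes, 0 for aminergic factors, 1 for actin, 0 for FIGNL1 relatives and recombination genes, 0 for Ikaros and 7 for imprinted genes, since that test asks for a larger change. DESeq2's Wald test called 3 monoamine genes and 1 aminergic factor, and at least 10 counts in every library left 1 aminergic factor. Leaving out 1 library gave 3 to 7 monoamine genes (4 without WT replicate 1 and 3 without WT replicate 2) and 1 to 2 Ikaros genes (2 without *Patz1* KO replicate 2). *1700042O10Rik* was called with no filter on low counts, with the block, with robust estimation and without *Patz1* KO replicate 1. The causes were not tested. The medians of the lists moved between -0.17 and -0.046 for GRB10 partners, -0.11 and 0.08 for monoamine genes, -0.70 and -0.24 for aminergic factors, -0.10 and 0.13 for actin, -0.26 and -0.16 for FIGNL1 relatives and recombination genes, -0.03 and 0.28 for Ikaros and 0.06 and 0.16 for imprinted genes, so the sign of the monoamine, actin and Ikaros medians is not stable. Replicate numbers did not pair the libraries (r = 0.03 across genes between the replicate differences of the genotypes). With the replicate block the log2 fold changes were -3.01 for *Grb10*, 2.19 for *Ddc*, -2.24 for *Cobl*, -0.87 for *Fignl1* and -0.33 for *Ikzf1*, and 2 Ikaros genes were called. Depth limits *Ikzf1* and the other genes with few counts, where intervals are wide.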

Other observations

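Chromosomes differed in their median log2 fold change. Over 20 chromosomes the medians went from -0.13 for chromosome 13 to 0.56 for chromosome 6, with 0.25 for the X chromosome and 0.15 for chromosome 8. Of the 695 tested genes on chromosome 6, 454 were higher and 47 lower. The 5 genes around *Grb10* lie on chromosome 11, whose median was -0.02.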
